A study of Mus musculus with 6 samples.

Results

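Major histocompatibility complex (MHC) class I presentation was described here through 10 genes, out of 18099 genes measured in injured mouse tendon. These are Nlrc5, B2m, H2-K1, H2-D1, Tap1, Tap2, Tapbp, Psmb8, Psmb9 and Psmb10. The genes were chosen from a first look at the same contrast that is described below, so their differences between groups are given as a description. Where edgeR's calls among them are counted, the counts describe that choice and are not evidence for it. All 10 passed the filter on low counts that left 14261 genes.

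RNA sequencing was performed on Achilles tendon tissue of neonatal mice, which had been transected on both legs and was collected 7 days after injury. The LysM-Cre; Ampkα1fl/fl mice (3 mice, called the LysM-Cre group below) carry Cre recombinase in the lysozyme M locus and 2 floxed alleles of Ampkα1, the gene Prkaa1, whereas the control group was made of 3 Ampkα1fl/fl littermates that carry the floxed alleles without Cre. Cre made from this locus acts in myeloid cells, mainly macrophages and granulocytes, while the RNA came from the whole tissue with all its cell types. Libraries held between 18170067 and 18858369 reads in the control group and between 18076805 and 19479887 reads in the LysM-Cre group. Lyz2, which this locus encodes, was at 390, 425 and 404 CPM (read counts scaled to the library total, which was adjusted by edgeR's TMM method) in the control mice and 0.469, 0.811 and 0.432 CPM in the LysM-Cre mice. Lyz2 RNA was thus nearly absent in all 3 LysM-Cre mice, a difference between the groups besides the floxed gene. Any part of it in the values below was not tested. Prkaa1 had 39.2, 37.6 and 37.8 CPM in the control mice and 32.7, 40.6 and 35.2 CPM in the LysM-Cre mice, so its groups overlapped in whole tissue (log2 fold change -0.08 with a standard error (SE) of 0.09, and an adjusted p of 0.744 by edgeR).

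Class I molecules show fragments of a cell's own proteins to CD8 T cells and are read by natural killer cells as a sign of an intact cell. Proteasomes cut the proteins, and in cells stimulated by interferon the catalytic subunits Psmb8, Psmb9 and Psmb10 take the place of Psmb5, Psmb6 and Psmb7. The transporter made of Tap1 and Tap2 carries the peptides into the endoplasmic reticulum, tapasin (Tapbp) holds the empty heavy chain next to it, and the heavy chains H2-K1 and H2-D1 reach the surface together with β2-microglobulin (B2m). Nlrc5, a protein of the NOD-like receptor family, is the transactivator of class I genes. It does not bind DNA alone but joins RFX, NF-Y and CREB proteins on class I promoters, as Ciita does on class II promoters. Interferon-γ, acting in part through Irf1, induces Nlrc5 and most of the other genes.

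Many of these genes are close neighbours. On chromosome 17 of the mouse genome (GRCm38.p6, RefSeq annotation), Psmb9 spans 34182030 to 34187330, Tap1 spans 34187556 to 34197225, Psmb8 spans 34198195 to 34201454 and Tap2 spans 34204479 to 34216321. Tapbp (33919478 to 33929290), H2-K1 (33996012 to 34000619) and H2-D1 (35263094 to 35267497) lie on the same chromosome. B2m is on chromosome 2 (122147687 to 122153082). Nlrc5 (94434335 to 94527272) and Psmb10 (105935728 to 105938392) are on chromosome 8.

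The promoter stretches of 4 heavy chains are shown because these genes, although closely related, had unlike log2 fold changes (0.20, 0.09, 0.52 and 1.37, each uncertain for the reason given with the division of reads, and with the difference between genes not tested). They were taken from RefSeq promoter windows of GRCm38.p6, which reach from 250 bases before the annotated start to 50 bases after it and were found for 8 of the 10 genes (not for Nlrc5 and Tap2). Capitals mark every match, on either strand, to the interferon-stimulated response element (GAANNGAAA, seen here as TTTCACTTC), the κB site (GGGATTCCC), the core of the cyclic AMP response element (TGACG) and the CCAAT box (CCAAT or ATTGG). The γ-interferon activation site (TTCNNNGAA) was also searched. None of the matches shared a base with a match to another motif.
H2-K1: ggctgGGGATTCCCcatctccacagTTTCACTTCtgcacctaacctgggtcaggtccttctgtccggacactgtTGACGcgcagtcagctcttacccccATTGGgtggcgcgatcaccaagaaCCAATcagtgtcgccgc
H2-D1: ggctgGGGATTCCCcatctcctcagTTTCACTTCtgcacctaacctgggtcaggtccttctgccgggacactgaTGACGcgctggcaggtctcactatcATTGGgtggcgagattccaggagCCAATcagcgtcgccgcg
H2-Q4: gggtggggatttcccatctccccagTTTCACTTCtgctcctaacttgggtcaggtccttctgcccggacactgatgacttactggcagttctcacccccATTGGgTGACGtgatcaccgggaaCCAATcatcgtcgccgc
H2-Q6: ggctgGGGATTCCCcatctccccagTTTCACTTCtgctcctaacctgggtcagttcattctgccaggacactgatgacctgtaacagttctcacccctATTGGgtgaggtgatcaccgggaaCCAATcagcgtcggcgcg

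These stretches read 5′ to 3′ along the gene, from chr17:34000323-34000462 on the minus strand (H2-K1) and from chr17:35262919-35263058 (H2-D1), chr17:35379439-35379578 (H2-Q4) and chr17:35424673-35424812 (H2-Q6) on the plus strand. All 4 held the same interferon-stimulated element and a CCAAT box in each direction. The TGACG core lay between them in H2-K1 and H2-D1, after the first CCAAT box in H2-Q4 and nowhere in the H2-Q6 window, and the H2-Q4 stretch had no exact κB match. Other windows were searched but are not printed. The H2-Q7 window held the interferon-stimulated element, the κB site, TGACG and CCAAT boxes, and that of H2-T22 held no interferon-stimulated element. Psmb6, a constitutive proteasome subunit, held this element and TGACG. Any relation of the matches to the log2 fold changes was not tested. Of all 32851 RefSeq promoter windows, 7.52% held the interferon-stimulated element, 0.353% the κB site, 20.8% TGACG, 37.4% a CCAAT box and 8.3% the γ-interferon activation site.

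The promoters of B2m, the light chain, and Tap1, a transporter subunit, are shown for comparison. The B2m stretch is chr2:122147567-122147706 on the plus strand. The Tap1 stretch, chr17:34187306-34187605 on the plus strand, is the whole window, and it shares 275 bases with the window of Psmb9, which is read from the other strand and starts 226 bases away. A TGACG core was matched in both, and neither held the interferon-stimulated element or the γ-interferon site. Among the members' windows the latter was matched in Psmb8, 97 bases before the start.
B2m: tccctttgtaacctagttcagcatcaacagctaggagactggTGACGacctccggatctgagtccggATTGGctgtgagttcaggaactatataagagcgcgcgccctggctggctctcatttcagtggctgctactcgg
Tap1: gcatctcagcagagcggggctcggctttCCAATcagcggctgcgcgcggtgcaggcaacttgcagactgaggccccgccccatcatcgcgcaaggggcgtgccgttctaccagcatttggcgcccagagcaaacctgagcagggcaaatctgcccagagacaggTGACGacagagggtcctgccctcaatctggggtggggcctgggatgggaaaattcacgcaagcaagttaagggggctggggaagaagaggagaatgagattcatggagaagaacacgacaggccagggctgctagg

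Nlrc5 showed the widest separation of the 10 genes. It had 107, 108 and 97 reads in the control mice, against 237, 207 and 285 in the LysM-Cre mice. The 3 LysM-Cre mice were all above the 3 control mice, and the gap between the groups was wider than the spread within either. The mean level was 5.63 ± 0.293 CPM in the control group against 13.0 ± 2.17 CPM for LysM-Cre (SD, n = 3 each). That is a 2.31-fold difference, with a log2 fold change of 1.21, an SE of 0.15 and a 95% interval of 0.86 to 1.55. Comparing mice with the same replicate number, the log2 difference was 1.11, 0.91 and 1.52.

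Tap1, the first subunit of the peptide transporter, came next. Its reads were 447, 447 and 470 in the control mice and 773, 571 and 788 in the LysM-Cre mice. The groups did not overlap, but LysM-Cre mouse 2 stood closer to the controls than the other two. The log2 fold change was 0.62 with an SE of 0.12 (95% interval 0.33 to 0.92), from 24.6 ± 1.07 to 37.9 ± 6.21 CPM. Its partner subunit Tap2 had 440, 360 and 405 reads in the control mice, against 530, 427 and 491 in the LysM-Cre mice, with a log2 fold change of 0.25 (SE 0.10). The Tap2 groups overlapped, because LysM-Cre mouse 2 lay below control mouse 1.

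Tapasin, the bridge between transporter and heavy chain, was a little higher in every LysM-Cre mouse. Tapbp had 2238, 2205 and 2263 reads in the control mice, against 2807, 2364 and 2592 in the LysM-Cre mice, a log2 fold change of 0.19 (SE 0.06). In CPM the groups did not overlap, with 121 ± 2.86 CPM against 138 ± 9.42 CPM (SD, n = 3).

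**Figure D1:**
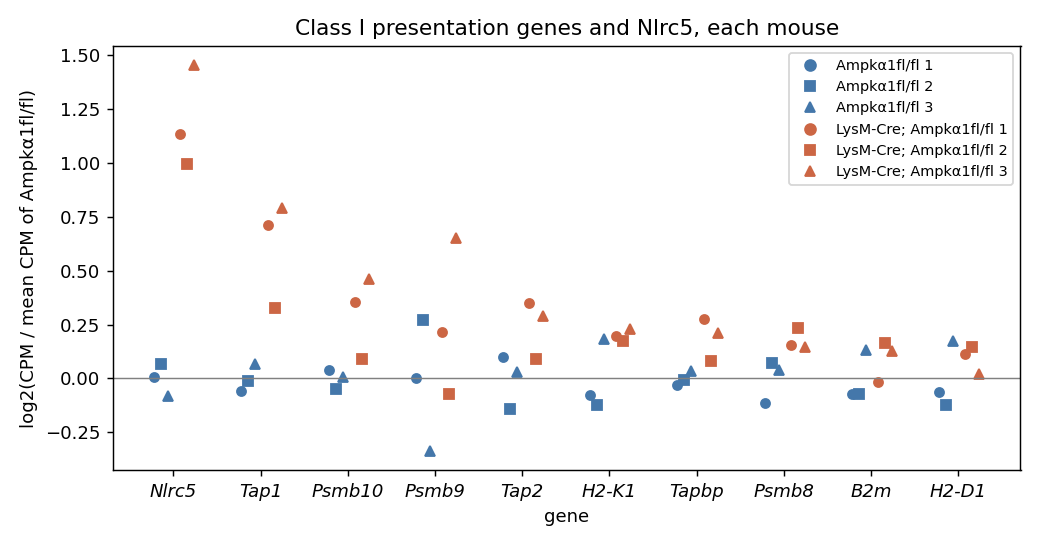
Level of each of the 10 genes in each mouse, as log2 of CPM over the mean CPM of the Ampkα1fl/fl controls, with genes ordered by log2 fold change and 1 point per mouse. Nlrc5 and Tap1 separate the groups, by 1.21 and 0.62 on average, whereas the points of B2m and H2-D1 are mixed.

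The 3 catalytic subunits of the immunoproteasome had log2 fold changes between those of Tap1 and the light chain. Psmb10 had 294, 268 and 277 reads in the control mice, against 371, 298 and 385 in the LysM-Cre mice (log2 fold change 0.31, SE 0.11). Psmb8 had 336, 370 and 361 reads in the control mice, against 411, 419 and 394 in the LysM-Cre mice (log2 fold change 0.18, SE 0.08). In CPM neither gene overlapped between groups, although the nearest mice were close. Psmb9 was the least certain of the 3, with 97, 113 and 74 reads in the control mice, against 114, 90 and 149 in the LysM-Cre mice. Its groups overlapped, and the log2 fold change of 0.30 had an SE of 0.24.

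Their constitutive counterparts were level between the groups. Psmb5 had a log2 fold change of -0.02 (edgeR adjusted p = 0.924), Psmb6 of -0.00 (adjusted p = 0.996) and Psmb7 of 0.02 (adjusted p = 0.911), each with an SE of 0.07. In TPM, which is scaled to transcript length as well as library size, the level of Psmb8 as a percentage of Psmb5 was 23.1 ± 1.85 in the control group and 26.5 ± 2.39 in the LysM-Cre group. For Psmb9 over Psmb6 the percentages were 10.7 ± 1.96 and 13.1 ± 2.5. For Psmb10 over Psmb7 they were 16.2 ± 0.549 and 19.7 ± 2.22 (SD, n = 3 for each), and this was the ratio in which no LysM-Cre mouse overlapped the controls, with 16.2, 15.6 and 16.7 against 21.1, 17.1 and 20.8. The activator subunits Psme1, Psme2 and Psme3, of which the first pair is also induced by interferon-γ, had log2 fold changes of 0.08, -0.01 and 0.02, and none of them passed the test. Among 34 other genes of the proteasome core, its regulatory particle and its assembly, 10 were higher and 24 lower, the median log2 fold change was -0.02 and 0 were called by edgeR. At an unadjusted p under 0.05 the count was also 0, beside 14.5% of all genes tested (5.97% higher and 8.55% lower in the LysM-Cre group).

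The classical heavy chains and their light chain were the most abundant transcripts among the 10, and B2m and H2-D1 had the smallest log2 fold changes. H2-K1 had 3851, 3601 and 4440 reads in the control mice, against 4711, 4478 and 4660 in the LysM-Cre mice (log2 fold change 0.20, SE 0.09). H2-D1 had 7086, 6578 and 8050 reads in the control mice, against 8125, 8015 and 7363 in the LysM-Cre mice (log2 fold change 0.09, SE 0.09). B2m had 7140, 6919 and 7923 reads in the control mice, against 7529, 8230 and 8014 in the LysM-Cre mice (log2 fold change 0.09, SE 0.08). For all 3 genes control mouse 3 was the highest of its group and the groups overlapped. The 95% intervals ran from -0.01 to 0.41 for H2-K1, from -0.12 to 0.30 for H2-D1 and from -0.10 to 0.29 for B2m. Their differences from Nlrc5 were not tested.

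Counted together, all 10 genes had a positive log2 fold change, with a median of 0.22 against -0.002 over all genes tested. In 5 of the 10 the groups did not overlap with LysM-Cre higher, beside 8.94% of all genes tested. By edgeR's adjusted p under 0.05, 1 of the 10 genes was called, namely Nlrc5, beside 0.898% of all genes in either direction and 0.33% upwards. With mice of the same replicate number treated as a block, 0 of the 10 were called by edgeR, as also happened without control mouse 1, 2 or 3 or LysM-Cre mouse 1. Without LysM-Cre mouse 2 the called members were 2, Nlrc5 and Tap1, with 276 called among all genes. Since the genes were chosen with this contrast known, no more is read from these counts.

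Levels in TPM spanned a wide range. In the control group B2m stood at 1474 ± 149, H2-D1 at 552 ± 69.6, H2-K1 at 319 ± 42.3, Tapbp at 99.1 ± 3.38, Psmb8 at 42.5 ± 2.65 and Psmb10 at 31.7 ± 1.49 (SD, n = 3), and the mice of each gene lay apart from those of the next. Tap2 (19.9 ± 2.11), Psmb9 (19.5 ± 3.57) and Tap1 (18.6 ± 0.945) did not differ beyond their spread. The regulator Nlrc5 was far below them at 1.60 ± 0.0416. In the LysM-Cre group the same order held except that Tap1, at 28.7 ± 3.93, stood ahead of Psmb9 (24.2 ± 5.61) and Tap2 (23.7 ± 1.64), again with overlap between Tap1 and Psmb9. Nlrc5 remained the lowest at 3.74 ± 0.515.

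**Figure D2:**
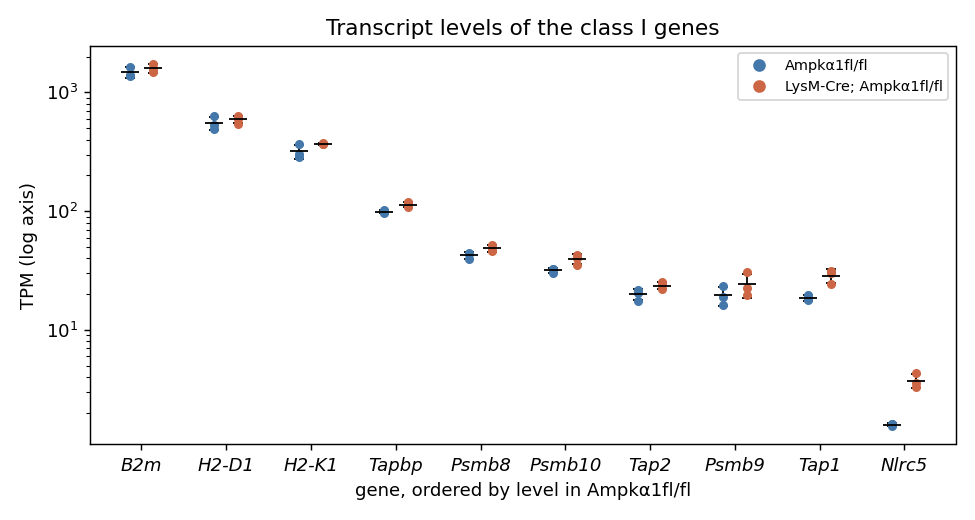
TPM of the 10 genes on a log axis, with 1 point per mouse and the mean and SD of each group of 3 mice in black. The genes run from B2m at 1474 TPM to Nlrc5 at 1.60 TPM in the controls, and the order changes only among Tap1, Tap2 and Psmb9.

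How reads were divided among transcripts bears on how these values can be used. The deposited table gives several entries for 1 RefSeq transcript where it has further placements. Such further placements were 4 of 6 entries for Tap1 and 3 of 4 each for Tap2 and H2-D1. They were 2 of 12 entries for H2-K1 and 6 of 8 for Tapbp. For the main transcripts of Tap1, Psmb8 and Psmb9 the 2 leading placements held 50% of the reads each in every library. The 4 placements of H2-D1 were filled differently from mouse to mouse, and the fourth held 4.69% of them in control mouse 2 and 63.5% in LysM-Cre mouse 3. The H2-K1 transcript with most reads split 50% to 50% in 5 libraries and 83.7% to 16.3% in LysM-Cre mouse 2. Sums over all entries of a gene do not depend on these splits and are the values given above, but reads shared between H2-K1, H2-D1 and their near relatives could still be assigned to either gene, so the value of each heavy chain is uncertain.

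Nlrc5 has 6 transcripts in the table, 1 of them at 0 reads in every library. The curated one took 21.3, 37.8 and 48.7 estimated reads in the control mice and 154, 101 and 143 in the LysM-Cre mice. The 4 predicted models with reads held at most 83.3 reads, and each of them was at 0 in 3 of the 6 mice. For this curated transcript alone the log2 fold change was 1.86, where the sum over transcripts gave 1.21. The edgeR adjusted p of the curated transcript was 0.137, so Nlrc5 was not called in that setting.

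**Figure D3:**
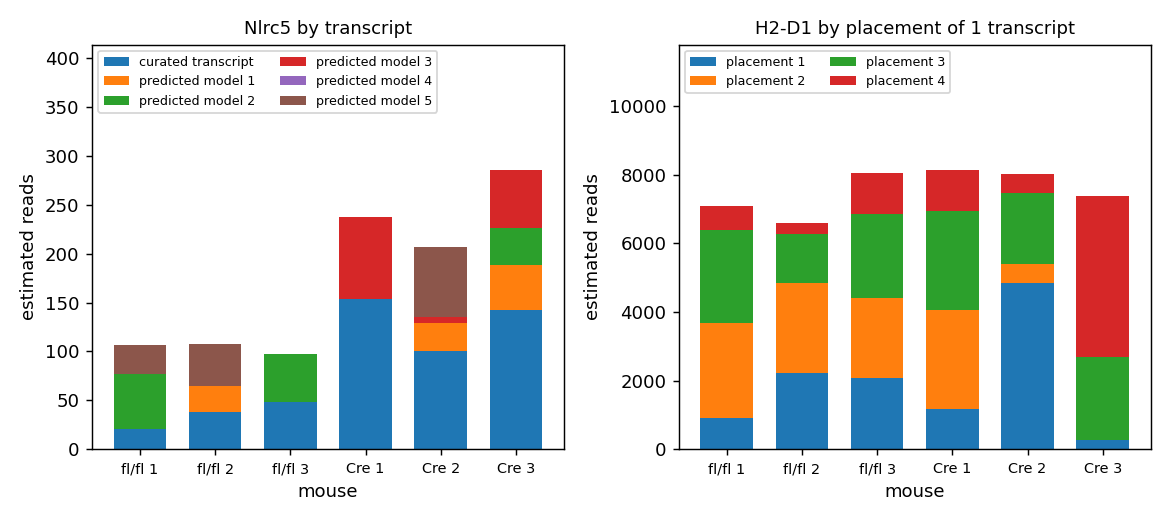
Estimated reads of each mouse (3 Ampkα1fl/fl, labelled fl/fl, and 3 LysM-Cre; Ampkα1fl/fl, labelled Cre) divided among the 6 transcripts of Nlrc5 and the 4 placements of the H2-D1 transcript. The bars of Nlrc5 reach 97 to 108 reads in the controls and 207 to 285 in the LysM-Cre mice, and the H2-D1 total changes little while its parts exchange reads.

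The other class I heavy chains were examined next, since Nlrc5 acts on classical and nonclassical promoters alike. Of 23 such genes listed, 18 were in the table and 9 passed the filter on low counts. Of these, 9 had a positive log2 fold change (median 0.52) and 1 was called, beside 0.33% of all genes called upwards. In 3 of the 9 the groups did not overlap with LysM-Cre higher, beside 8.94% of all genes. At an unadjusted edgeR p under 0.05, 3 of the 9 were higher, beside 5.97% of all genes. The called gene was H2-Q4, a heavy chain of the Qa region, with 645, 622 and 705 reads in the control mice, against 963, 889 and 1010 in the LysM-Cre mice. All LysM-Cre mice were above all control mice, and the same-numbered mice differed by 0.56, 0.50 and 0.50 on the log2 scale. Its log2 fold change was 0.52 with an SE of 0.08 and an adjusted p of 0.0431 by edgeR, which became 0.0607 when edgeR was run with a replicate block. Leaving out any 1 mouse other than LysM-Cre mouse 2 also ended the call, with adjusted p values up to 0.201.

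H2-Q6, from the same region, had 8.04, 6.01 and 9.21 CPM in the control mice and 14.0, 22.4 and 23.7 CPM in the LysM-Cre mice. Although no mice overlapped, its log2 fold change of 1.37 (SE 0.24) had an edgeR adjusted p of 0.0646. H2-Q6, H2-Q7, H2-Q8 and H2-Q9 are near copies of each other, and H2-Q9 was at 0 CPM in 3 of the 6 libraries while H2-Q6 and H2-Q7 were not, so their single values are uncertain. Summed over these 4 genes, the level was 16.9, 12.0 and 19.2 CPM in the control mice and 22.7, 37.1 and 37.2 CPM in the LysM-Cre mice, again without overlap. H2-Q7 (0.54, adjusted p = 0.504), H2-T24 (0.53, adjusted p = 0.459) and H2-Q9 (0.73, adjusted p = 0.892) had positive log2 fold changes that did not pass edgeR's test. H2-T22 and H2-T23, which encode ligands of γδ T cells and of the inhibitory receptor Cd94/NKG2A, had log2 fold changes of 0.25 (edgeR adjusted p = 0.129) and 0.23 (adjusted p = 0.593), and H2-M3, which presents formylated peptides, of 0.01 (adjusted p = 0.987).

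To set aside the division of reads among relatives, 20 heavy chain genes were also summed and tested as 1 gene. The sum was 715, 689 and 836 CPM in the control mice and 856, 852 and 850 CPM in the LysM-Cre mice. The LysM-Cre mice were nearly identical and above all controls, of which control mouse 3 was the nearest. The log2 fold change was 0.19 with an SE of 0.08 and an edgeR adjusted p of 0.347.

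Class I-like molecules, which share the fold but are not loaded by this pathway, did not follow the heavy chains. Of 8 tested, 1 was higher and 7 were lower, with a median log2 fold change of -0.27 and 0 called. By size the first were Raet1d, a ligand of the activating receptor NKG2D (-0.75, edgeR adjusted p = 0.225), Procr, the endothelial protein C receptor (-0.40, adjusted p = 0.128), and Ulbp1, another NKG2D ligand (-0.35, adjusted p = 0.416). The groups of these 3 genes and of Hfe, which controls iron uptake (-0.30, adjusted p = 0.287), did not overlap, that is 4 of 8 lower beside 11.4% of all genes tested. At an unadjusted p under 0.05, Raet1d, Procr and Hfe were lower, 3 of 8 beside 8.55% of all genes.

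Other chaperones and peptidases that serve the pathway were close to level. Of 14 tested, 9 were higher and 5 lower, the median log2 fold change was 0.03, and 0 passed edgeR's test, also at an unadjusted p under 0.05. Their log2 fold changes ranged from -0.15 for Uggt1, which checks the folding of glycoproteins (edgeR adjusted p = 0.361), to 0.09 for Npepps, a cytosolic aminopeptidase (adjusted p = 0.589). Calreticulin (Calr) was at 0.07 and calnexin (Canx) at -0.06. Erap1, the aminopeptidase that trims peptides in the endoplasmic reticulum, was at -0.01 (adjusted p = 0.968).

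The partners of Nlrc5 on class I promoters did not follow it either. Of 11 tested (RFX and NF-Y subunits, Creb1, Atf1 and acetyltransferases), 3 were higher and 8 lower, with a median of -0.08 and 0 called, also at an unadjusted p under 0.05. Rfxank (-0.24), Nfyc (-0.14) and Atf1 (-0.13) were the furthest from 0, and Rfx5 was at -0.10. Among 8 other genes of the NOD-like receptor family, 3 were higher and 5 lower with 0 called, and the one with the largest difference, Nlrc3, had 1.96, 2.79 and 3.34 CPM in the control mice and 3.81, 3.19 and 7.51 CPM in the LysM-Cre mice (log2 fold change 0.84, SE 0.37, adjusted p = 0.364 by edgeR).

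**Figure D4:**
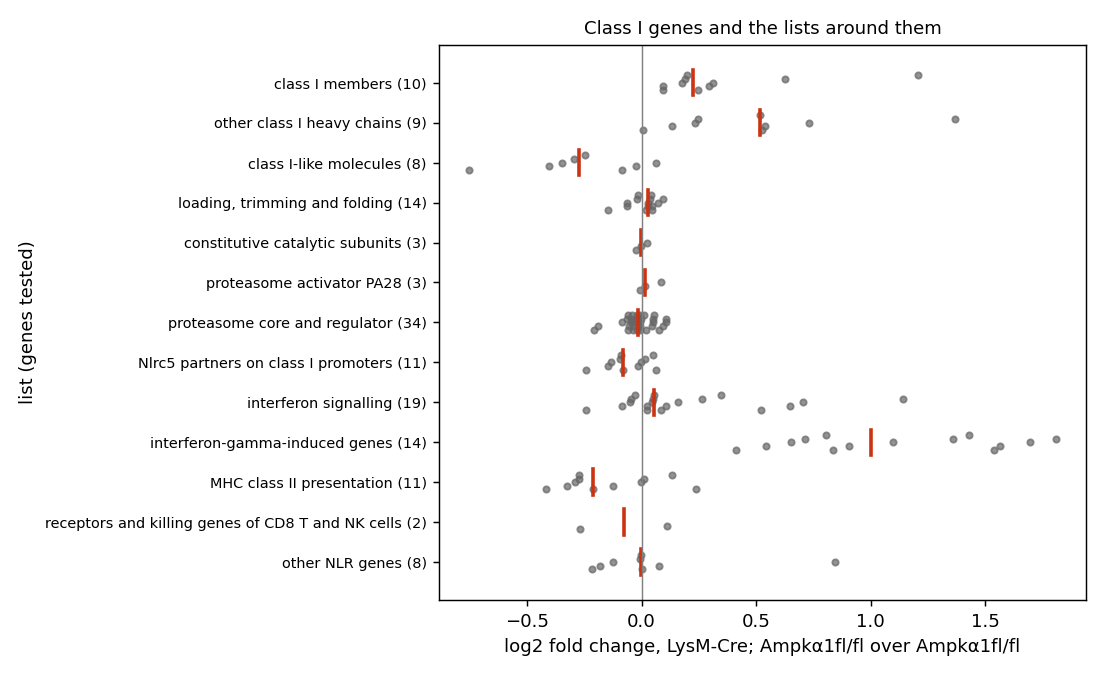
Log2 fold change (LysM-Cre; Ampkα1fl/fl over Ampkα1fl/fl) of every tested gene of the class I members and of 12 lists around them, with 1 point per gene, the number tested in brackets and the median of each list as a red bar. The medians of the members (0.22), the other heavy chains (0.52) and the interferon-γ-induced genes (1.00) lie to the right, and those of the constitutive proteasome lists lie near 0.

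Genes of interferon signalling were mixed. Of 19 tested, 14 were higher and 5 lower, with a median log2 fold change of 0.05 and 0 called by edgeR. At an unadjusted edgeR p under 0.05, 5 of 19 were higher and 0 lower, beside 5.97% of all genes higher. In 5 of 19 the groups did not overlap with LysM-Cre higher, beside 8.94% of all genes tested. Stat2 (0.52, adjusted p = 0.123 by edgeR) and Irf9 (0.35, adjusted p = 0.216), which act together after type I interferon, did not overlap between groups, with LysM-Cre higher. Irf1, which binds class I and Nlrc5 promoters, was at 0.26 (SE 0.09, adjusted p = 0.261 by edgeR), also without overlap. Usp18 (1.14, adjusted p = 0.232) and Irf7 (0.65, adjusted p = 0.371) overlapped, with LysM-Cre mouse 2 among the control values for each. The receptors and kinases were level, with Ifngr1 at -0.08, Ifngr2 at 0.11, Jak1 at 0.05 and Jak2 at 0.02. Ifng itself had 0, 2 and 1 reads in the control mice, against 1, 0 and 0 in the LysM-Cre mice, which is too few for any comparison at this depth.

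Of 14 genes known to be induced by interferon-γ (guanylate-binding proteins, immunity-related GTPases and chemokines), 14 were higher with a median log2 fold change of 1.00, and 14 had an unadjusted p under 0.05, beside 5.97% of all genes tested that were higher at that p. By edgeR's adjusted p 0 of the 14 were called, with 128 called among all genes. Without LysM-Cre mouse 2 edgeR called 9 of 14, with 276 called among all genes. DESeq2, which tested 15 genes of this list, called 11 of them, with 688 called among all genes. In edgeR's test the smallest adjusted p was that of Irgm2, 0.0508 (log2 fold change 0.71), followed by Iigp1 at 0.0530 (1.81).

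Class II presentation gave other values. Of 11 genes tested, 3 were higher and 8 lower with a median log2 fold change of -0.21, 0 called and 0 at an unadjusted p under 0.05. Ciita, the class II transactivator and the closest counterpart of Nlrc5, had 3.91, 2.95 and 2.47 CPM in the control mice and 2.66, 4.33 and 3.24 CPM in the LysM-Cre mice, with full overlap (log2 fold change 0.13, SE 0.26, adjusted p = 0.873 by edgeR). The 95% interval of Ciita was -0.49 to 0.75. Nlrc5 was among the genes chosen with this contrast known, and the difference between the 2 genes was not tested. H2-Aa, H2-Ab1 and H2-Eb1, the chains of the class II molecules, had log2 fold changes between -0.29 and -0.27.

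The cells that read class I molecules were hardly seen. Of 15 genes for CD8 T cell and natural killer cell receptors and killing in the table, 2 passed the filter. Cd8a had between 0 and 1 reads in the control mice and between 1 and 5 reads in the LysM-Cre mice, Cd8b1 had 0 reads in 5 of the 6 libraries, and Prf1 had between 2 and 4 reads. Of the genes tested, Klrk1, which encodes NKG2D, was at 0.11 (edgeR adjusted p = 0.891) and Pirb, a myeloid inhibitory receptor that binds class I molecules, at -0.27 (adjusted p = 0.519).

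Genes whose profile over the 6 mice was most like that of Nlrc5 were searched among all genes tested, by Pearson's r of log2 CPM. The 5 nearest were Rnf217 (r = 0.998), Hlf (0.996), Chst10 (0.996), Smoc1 (0.992) and Irgm2 (0.991). These r values rest on 6 libraries in 2 groups and mostly reflect the difference between groups, so they are a description. Irgm2, an immunity-related GTPase, had 25.2, 25.4 and 23.9 CPM in the control mice and 39.5, 35.0 and 47.6 CPM in the LysM-Cre mice, with the mice in the order of Nlrc5 within the LysM-Cre group. Smoc1, a secreted matricellular protein, rose by 0.75 on the log2 scale (SE 0.11), with an adjusted p of 0.0425 by edgeR that became 0.0634 under the replicate block. H2-Q4 had r = 0.957 and Tap1 0.949, followed by Psmb10 (0.891), Tapbp (0.864), Tap2 (0.776), Psmb8 (0.748), H2-K1 (0.690), Psmb9 (0.641), B2m (0.427) and H2-D1 (0.309). Ciita stood at 0.178.

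**Figure D5:**
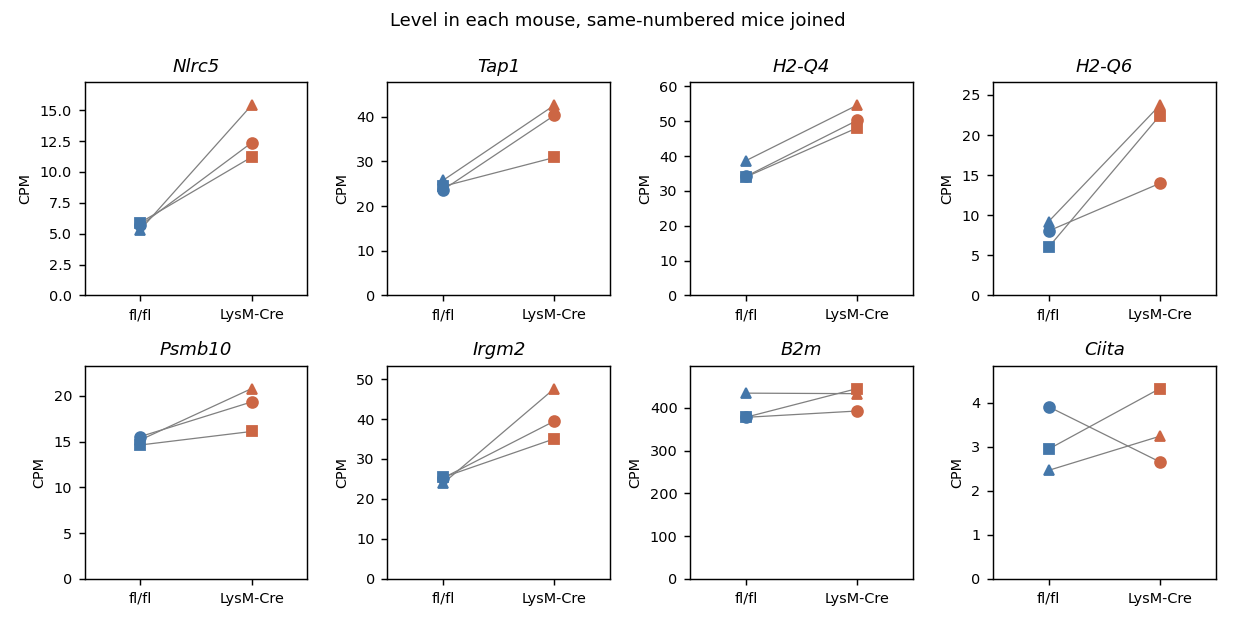
CPM of Nlrc5 and 7 other genes in each mouse, with same-numbered mice of the control (fl/fl) and LysM-Cre groups joined by a line and axes starting at 0. In Nlrc5, H2-Q4, H2-Q6, Tap1, Psmb10 and Irgm2 every line goes up and the groups do not overlap, with LysM-Cre mouse 2 (square) lowest of its group except in H2-Q6, whereas B2m and Ciita overlap.

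The cell content of the tissue was checked with marker lists, because in whole tissue fewer cells of a type and less RNA per cell cannot be told apart. Tendon markers were abundant in all libraries, with 101300 to 110700 CPM in all in the control group and 94480 to 111500 CPM in the LysM-Cre group. Of the 10, 4 were higher and 6 lower (median log2 fold change -0.01), and 1 was called, the proteoglycan Dcn, lower by a log2 fold change of -0.45 (adjusted p = 0.0301 by edgeR, or 0.0611 with the replicate block). Of 10 leukocyte markers tested, 1 was higher and 9 lower (median log2 fold change -0.21, 0 called), and they summed to 475 to 524 CPM in the control group and 382 to 474 CPM in the LysM-Cre group. Of 10 macrophage markers 3 were higher and 7 lower (median -0.21, 0 called), with sums of 1123 to 1165 CPM and of 751 to 946 CPM. Of 10 endothelial markers 1 was higher and 9 lower (0 called), with sums of 908 to 993 CPM and of 856 to 891 CPM. Lower without overlap in the LysM-Cre group were 6 leukocyte, 5 macrophage and 3 endothelial markers of 10 each, beside 11.4% of all genes tested. At an unadjusted edgeR p under 0.05, 4, 5 and 2 were lower, beside 8.55% of all genes. By either measure 0 leukocyte, 1 macrophage and 1 endothelial marker were higher. Of 8 dendritic cell markers tested, 4 were higher and 4 lower (median log2 fold change 0.02, 0 called), and 2 were lower without overlap. Of 6 neutrophil markers tested, 5 were higher and 1 lower (median 0.74, 0 called), all with overlap. Neutrophil markers summed to 11.48, 40.05 and 1.535 CPM in the control mice and 41.93, 33.8 and 4.702 CPM in the LysM-Cre mice. B cell markers had a sum of at most 4.15 CPM in any library.

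Skeletal muscle markers leaned in the same direction as the class I genes. All 26 were higher in the LysM-Cre group (median log2 fold change 1.81, 0 called), but in 0 of 26 were the groups without overlap. At an unadjusted edgeR p under 0.05, 1 of 26 was higher, beside 5.97% of all genes. Their sum was 452, 1073 and 4993 CPM in the control mice and 5282, 1847 and 14690 CPM in the LysM-Cre mice, with overlap. With a muscle score as a covariate in edgeR's test, the log2 fold change was 1.09 for Nlrc5, 0.45 for Tap1, 0.40 for H2-Q4, 0.09 for H2-K1 and 0.03 for B2m, and 0 of the 10 members and 0 of the partner genes were called. Erythroid markers moved the other way (median -1.59). By edgeR 6 of 7 tested were called lower, beside 0.898% of all genes called in either direction. With the replicate block 1 of these erythroid markers was called. The part of either in the class I values was not tested further.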

How the data were processed

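Libraries of 3 LysM-Cre; Ampkα1fl/fl and 3 Ampkα1fl/fl mice were sequenced on the BGISEQ platform. For 65053 RefSeq transcripts the authors deposited an estimated count per mouse, not normalized, and TPM values, scaled by the authors to transcript length and library. The submitters' processing notes name GRCm38.p6. The aligner and counting tool are not given in the sources used here. Another 12 per-sample columns and 8 group-average columns stayed out.

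Estimated counts were summed per gene and rounded, giving 18099 genes, of which 99.72% were matched to a symbol. Testing was by edgeR 4.0.16 under R 4.3.3 (TMM, filterByExpr, quasi-likelihood test, Benjamini-Hochberg adjustment over 14261 genes, threshold 0.05), without a replicate block, as the study names unpaired tests. CPM are TMM-scaled. Standard errors are the log2 fold change over the square root of F. For single genes an exact permutation test of 3 against 3 mice cannot go below a two-sided p of 0.1 and was not used. Nothing in the labels links the same-numbered mice, but their deviations from the group means correlated at 0.184, 0.118 and 0.31 across genes, each over 0.1, so blocked values are given where they change a call. Some mice of different numbers correlated more (control mouse 1 with LysM-Cre mouse 2 at 0.501). The edgeR code was tested on simulated data.

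Alternatives were DESeq2 1.42.0, scaling by upper quartile or RLE, leaving the low-count filter out, a minimum of 10 counts in each library, the replicate block, a muscle score as covariate, leaving out each mouse, limma 3.58.1 on log2(TPM + 0.5) and log2(TPM + 1), the most abundant transcript per gene, and summed heavy chains.

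The members and lists were chosen with earlier results of these data known. The rule for naming took the 10 members and the 5 genes most like Nlrc5 in log2 CPM (prior count 2). From each partner list it took the called genes, filled up to 5 by largest change. Ciita, Irf1, Psmb5, Psmb6, Psmb7, Prkaa1 and Lyz2 were taken in every case. Some partner genes of this rule are left unnamed in the text, and Irgm2 is also named for its adjusted p. A further gene of this rule is not reported here. Other partner genes are named for their role and were chosen after their values were seen. Intervals are 95%. P-values measure only the spread between these mice.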

Additional observations from a re-analysis of the deposited data

How the results depend on the processing

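As described in the report, 128 genes, 1 member and 1 partner gene were called by edgeR. No log2 fold change of a member or of H2-Q4 changed sign under any alternative. The range over alternatives was 0.86 to 1.86 for Nlrc5, 0.45 to 0.75 for Tap1, 0.40 to 0.58 for H2-Q4, 0.09 to 0.49 for H2-K1, 0.03 to 0.17 for B2m and 0.17 to 0.28 for the members' median. The number of partner genes called was 2 with upper-quartile factors (H2-Q4 and Irgm2) and 3 with no filter on low counts or with at least 10 counts in every sample (H2-Q4, Irgm2 and Iigp1). With the replicate block 47 genes, 0 members and 0 partner genes were called, and with the muscle score as covariate 60, 0 and 0. DESeq2 called 688 genes, 2 members (Nlrc5 and Tap1) and 16 partner genes, 11 of them from the interferon-γ-induced list. On log2(TPM + 0.5) limma called 69 genes, 1 member (Nlrc5, 1.01) and 0 partner genes, and on log2(TPM + 1) 68 genes, 1 member (Nlrc5, 0.86) and 0 partner genes. The most abundant transcript per gene gave 48 genes, 0 members and 0 partner genes, with Nlrc5 at 1.86 and H2-K1 at 0.49. That H2-K1 value, the top of its range above, counts only 1 of 2 placements of a transcript. The placement held 83.7% of the transcript's reads in LysM-Cre mouse 2 and 50% in every other library.

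When each mouse was left out in turn, the calls ranged from 8 to 276 genes, from 0 to 2 members and from 0 to 12 partner genes. Without control mouse 1, 2 or 3 the calls were 10, 8 and 24 genes with 0 members and 0 partner genes, and without LysM-Cre mouse 1 they were 12, 0 and 0. Without LysM-Cre mouse 2 there were 276 genes, 2 members (Nlrc5 and Tap1) and 12 partner genes (9 from the interferon-γ-induced list, with H2-Q4 and Usp18 among the others), and without LysM-Cre mouse 3 there were 60 genes, 1 member (Nlrc5) and 1 partner gene (Iigp1). H2-Q4 lost its call in 10 of 16 alternatives while its log2 fold change stayed within the range above. The cause of these shifts was not tested. Counts of about 100 reads per control mouse limit the precision for Nlrc5 and Psmb9, and reads shared among heavy chains limit it for each of those genes.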
